A study of Mus musculus with 15 samples.

Results

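Preadipocytes were compared with progenitors, across all genes measured, in mouse pups whose milk had a low n6/n3 fatty acid ratio. The members are the 8 bulk RNA-seq libraries whose labels give the low ratio, of 15 libraries in the series: 4 of preadipocytes and 4 of progenitors. Both populations were adipocyte precursors of the subcutaneous fat of cross-fostered wildtype C57Bl/6 pups, isolated with a flow sorter. The preadipocytes were the CD24- cells and the progenitors the CD24+ cells, so the sort itself separates them by CD24. The remaining libraries, 3 of preadipocytes and 4 of progenitors, came from pups on milk with a high ratio and are used only for the closing comparison. The pups had the milk for 12 days according to the growth protocol and for 10 days according to the treatment protocol. The 4 preadipocyte libraries carry the low ratio in their characteristics and the high ratio in their source name. The characteristics were used, because the same numbers (108, 114, 119 and 133) belong to the low ratio in both fields in progenitors. The labels do not say how many pups went into a library, and the spread that p-values rest on may in part be technical.

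White fat grows in part by the recruitment of new adipocytes from mesenchymal precursor cells of the tissue's stroma. In the scheme behind the sort, CD24+ precursors are the less committed cells, and loss of CD24 marks a step towards preadipocytes that start to express genes of lipid uptake and storage. Precursors of both kinds are fibroblast-like cells that also make much of the collagen and elastic matrix of the tissue.

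Each population came as a table of its own that the authors had normalized separately. The deposited values were turned back into normalized counts, and the 8 libraries were rescaled together so that their mean total was 1000000. These values are called scaled counts here. They are comparable between libraries relative to the median gene, and a difference that affects one whole table cannot be told apart from a difference between the populations. Estimated depth was 35.3 to 49.8 M reads in preadipocytes and 34.3 to 39.3 M reads in progenitors. The first principal component held 34.5% of the variance and placed preadipocytes between -17.5 and -5.60 and progenitors between 0.474 and 25.04. Libraries 119 of both populations lay nearest to the other population on it, at -5.60 for preadipocytes and 0.474 for progenitors. Progenitor library 133 lay close to progenitor library 119, at 4.39, and progenitor libraries 108 and 114 stood apart, at 25.04 and 20.1. Progenitor library 119 correlated more with each preadipocyte library (0.952 to 0.967) than with progenitor libraries 108 and 114 (0.949 and 0.950). Many calls and counts that changed without both libraries 119 are given with and without them. Values of each gene are listed in the order 108, 114, 119 and 133.

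The RNA of the sort marker went with the labels. Cd24a, which encodes the small, heavily glycosylated surface protein CD24 (chr10:43578284-43584265, plus strand, GRCm38), had 15.6, 18.9, 16.5 and 17.5 scaled counts in preadipocytes, against 58.3, 48.8, 55.8 and 61.6 in progenitors. The groups did not overlap, and they averaged 17.1 ± 1.44 and 56.1 ± 5.44 scaled counts (SD, n = 4 each). On the log2 scale the difference was -1.66 ± 0.11 (preadipocytes minus progenitors, SE), with an adjusted p of 0.000137 by limma with Benjamini-Hochberg adjustment. Within libraries, Cd24a stood at a mean rank percentile of 73.2 in preadipocytes and 89.6 in progenitors among the genes found in both tables. Some Cd24a RNA was thus counted in every CD24- library. In bulk RNA, fewer cells that express a gene and less of its RNA per cell cannot be told apart.

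Genes with a mean of at least 10 scaled counts over the 8 libraries were tested with limma on log2(scaled count + 1), a scale that understates the change of low genes. Of 7630 genes tested, 221 (2.9%) were called at an adjusted p under 0.05. Of these, 96 (1.26% of genes tested) were higher in preadipocytes and 125 (1.64%) were lower. Called or not, 50.1% of all genes tested had a positive fold change. These shares are the background for the gene lists below. The 4 preadipocyte and 4 progenitor libraries did not overlap for any called gene, and they did not overlap for 13.8% of all genes tested. Most differences were of modest size: the median absolute log2 fold change of the called genes was 0.60, and 21 of them passed 1, of which 7 were higher and 14 lower. Scaling each library to its total in place of the median gene gave 191 higher and 79 lower, so the balance of the directions depends on the scaling. The count also depends on single libraries. It was 22, 23, 357 and 41 when preadipocyte library 108, 114, 119 or 133 was left out, and 52, 63, 353 and 37 when the progenitor library of the same number was left out. Without both libraries 119 it was 469, with 238 higher and 231 lower.

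**Figure D1:**
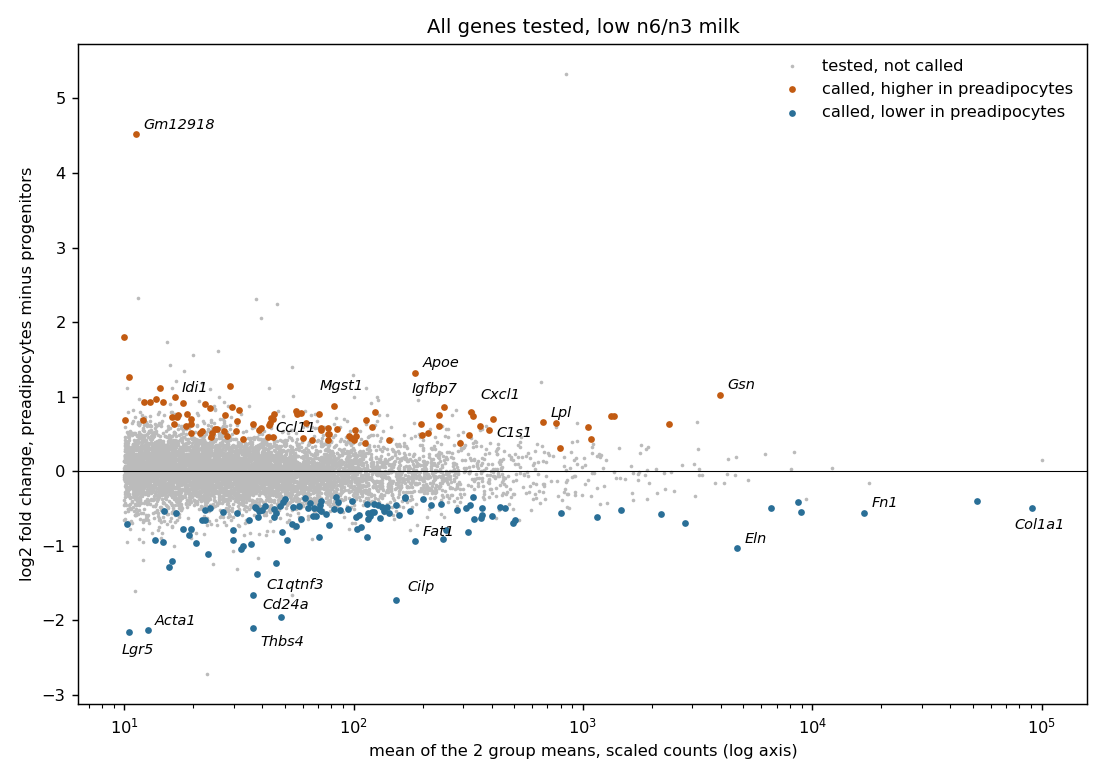
Log2 fold change of preadipocytes over progenitors (y axis) against the mean level in scaled counts (x axis, log scale) for the 7630 genes tested on low n6/n3 milk. Called genes are coloured, 96 above and 125 below the zero line, with Lgr5, Acta1, Thbs4, Hba-a2, Cd24a and Cilp as the lowest called genes and the pseudogene Gm12918 as the highest. Lgr5, Acta1 and Gm12918 passed the filter for testing only through the population in which they were higher.

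Across genes, which are not independent replicates, the fold change had a Spearman correlation of -0.29 with transcript length and 0.01 with GC content. In the longest of 5 equal bins of genes (median length 3702.5 bases) the median fold change was -0.13, with 16 genes called higher and 54 lower. In the shortest bin (635 bases) it was 0.09, with 27 called higher and 12 lower. A fit with the trend on length and GC content removed from each library called 128 genes, 62 higher and 66 lower. Of 48 called genes that the rule for named genes gives, 15 were not called in that fit. Among them were Mki67 (limma adjusted p = 0.0911), Clec11a (0.0759), Igfbp3 (0.0594), Bmp3 (0.112), Col1a2 (0.0594), Col5a1 (0.12), Gadd45b (0.0649), Ier2 (0.0505) and Creb5 (0.0531).

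Gsn, Lpl and Apoe were among the called genes that were higher in preadipocytes. Gsn, which encodes the actin-severing protein gelsolin (chr2:35256380-35307892), had 4905, 5723, 5914 and 4760 scaled counts in preadipocytes, against 3182, 2507, 2459 and 2359 in progenitors. Every preadipocyte library was above every progenitor library, and the log2 fold change was 1.02 ± 0.12 (limma adjusted p = 0.00531). Lpl, the lipoprotein lipase that frees fatty acids from circulating triglyceride (chr8:68880491-68907448), had 758, 801, 885 and 847 scaled counts in preadipocytes, against 510, 540, 530 and 502 in progenitors. The spread within both groups was narrow and the groups did not overlap, with a log2 fold change of 0.66 ± 0.08 (limma adjusted p = 0.00531). Apoe, the lipid carrier apolipoprotein E (chr7:19696109-19699188), had 205, 245, 413 and 204 scaled counts in preadipocytes, against 83.2, 93.9, 157 and 87.2 in progenitors. In both populations library 119 was highest, and the groups did not overlap. The log2 fold change of Apoe, 1.32 ± 0.26 (limma adjusted p = 0.0329), was no longer called in 6 of the 8 fits that left out 1 library, with an adjusted p of up to 0.0955 (without preadipocyte library 114).

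Mgst1, Igfbp7, Il1r1, Chchd2 and Adam12 were also higher. Mgst1, a membrane-bound glutathione transferase, had 115, 120, 90.0 and 104 scaled counts in preadipocytes, against 58.5, 57.6, 59.3 and 55.6 in progenitors (log2 fold change 0.87 ± 0.10, limma adjusted p = 0.00531). Its progenitor libraries were close to each other and all below the preadipocyte libraries. Igfbp7, a secreted protein that binds insulin-like growth factors, averaged 315 ± 16.8 scaled counts in preadipocytes and 179 ± 50.8 in progenitors (SD, n = 4 each). Il1r1, the signalling receptor of interleukin-1, averaged 74.4 ± 9.53 and 43.2 ± 6.93 scaled counts in preadipocytes and progenitors. Chchd2, a small mitochondrial protein, averaged 71.4 ± 11.8 in preadipocytes and 40.5 ± 6.93 in progenitors. Adam12, a membrane metalloprotease, averaged 158 ± 34.3 in preadipocytes and 90.5 ± 17.8 in progenitors. These 4 genes were called, with log2 fold changes of 0.86 for Igfbp7, 0.78 for Il1r1, 0.80 for Chchd2 and 0.80 for Adam12, and none of their groups overlapped. They depended on single libraries: of the 8 fits that left out 1 library, Igfbp7 and Chchd2 lost the call in 6, Il1r1 in 5 and Adam12 in 8. The highest limma adjusted p in those fits was 0.0982 for Igfbp7 (without preadipocyte library 108), 0.0956 for Chchd2 (without preadipocyte library 114), 0.0694 for Il1r1 and 0.106 for Adam12 (both without preadipocyte library 133). Adam12 was also not called with the trend on length and GC content removed (limma adjusted p = 0.0567) or without both libraries 119 (0.0866).

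**Figure D2:**
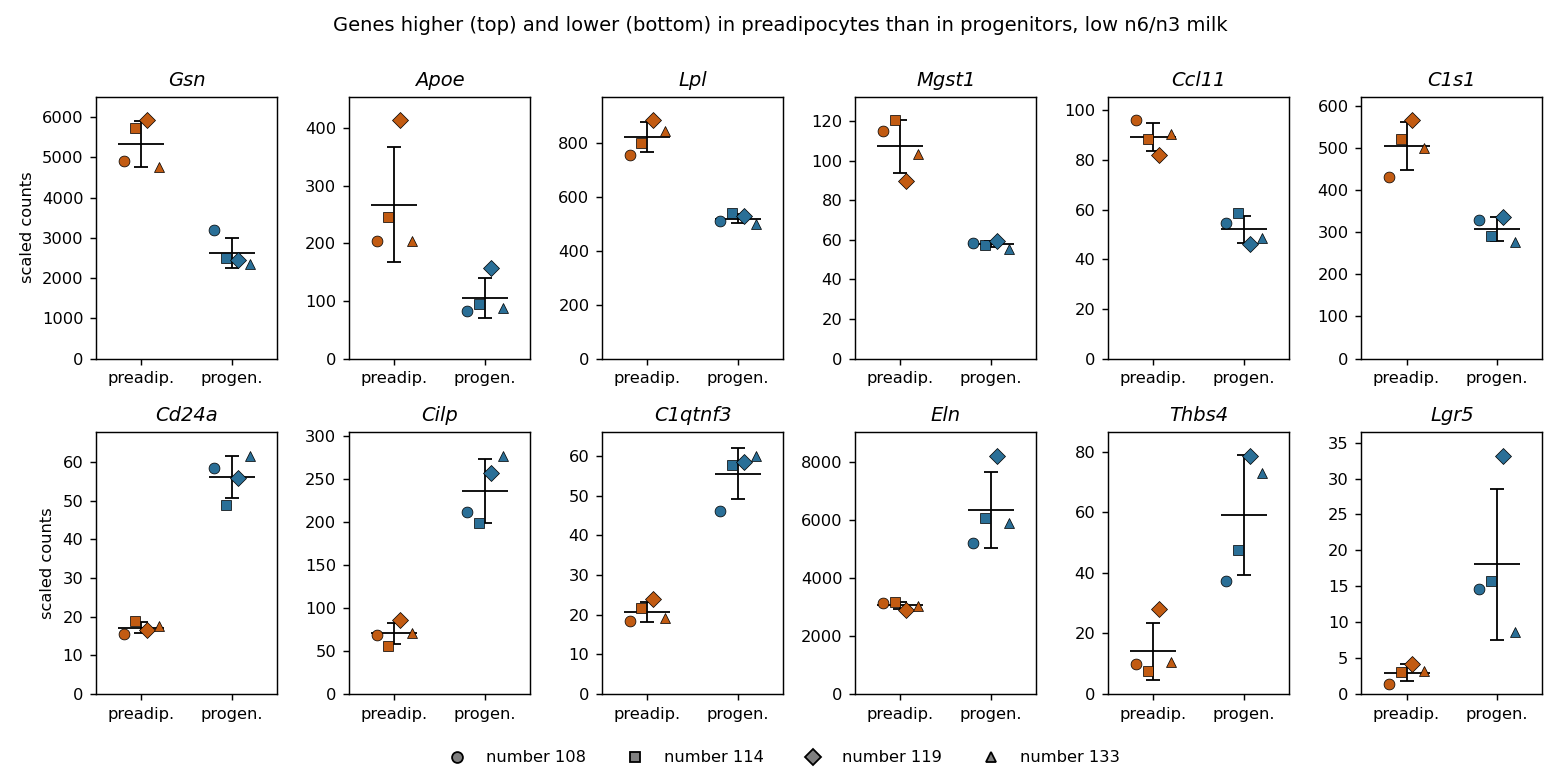
Scaled counts (y axes, linear from 0) of 12 genes in each library, preadipocytes left and progenitors right, with 1 marker shape per library number and the mean ± SD of the 4 libraries in black. The groups do not overlap for any of the 12 genes, and library 119 stands highest for Apoe in both populations.

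Of a list of 24 genes of committed preadipocytes, 18 had levels high enough to test, and 3 of these rose (Lpl, Apoe and Col4a1) while none fell. Without both libraries 119, 5 rose and 2 fell, and with all 15 libraries in the fit 6 rose and 2 fell. Their median log2 fold change was 0.56, against 0.001 over all genes tested, and 14 of 18 were positive, against 50.1% of all genes tested. Igf1, a growth factor among the 4 negative members, was lower without overlap and not called (-0.38 ± 0.09, limma adjusted p = 0.0539). Col4a1, a chain of the basement membrane collagen, had 1550, 1371, 1876 and 1825 scaled counts in preadipocytes, against 788, 1072, 1126 and 993 in progenitors. All preadipocyte libraries were higher (log2 fold change 0.74 ± 0.14, limma adjusted p = 0.0297), but 6 of the 8 fits without 1 library gave no call, with an adjusted p of up to 0.0762 without preadipocyte library 133. Between 1 and 8 members were called when single libraries were left out. Pparg, the nuclear receptor that drives adipocyte differentiation, had 18.5, 14.6, 28.3 and 28.4 scaled counts in preadipocytes, against 10.9, 10.4, 13.1 and 5.17 in progenitors. Its groups did not overlap, and its log2 fold change of 1.12 ± 0.29 was not called (limma adjusted p = 0.0655). Fabp4, the fatty acid carrier of adipocytes, had 192, 149, 161 and 98.4 scaled counts in preadipocytes and 89.8, 120, 118 and 63.8 in progenitors. These groups overlapped, and the difference of 0.62 ± 0.24 was not called (limma adjusted p = 0.169).

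Of 22 genes of lipid storage and mature adipocytes found in both tables, 4 reached the level needed for a test, and Lpl was the called one. Adipoq, which encodes the adipocyte hormone adiponectin, had between 0.823 and 1.22 scaled counts in preadipocytes and between 0.112 and 0.995 in progenitors. At these levels no difference could be read. Among 16 adipogenic transcription factors tested with limma, none was called and 4 had an unadjusted p under 0.05 (1 rose without both libraries 119, and 1 under scaling to totals). Cebpa, a partner of Pparg, had 21.1, 23.8, 24.5 and 21.8 scaled counts in preadipocytes, against 15.6, 15.9, 19.6 and 14.8 in progenitors, without overlap (log2 fold change 0.45 ± 0.12, limma adjusted p = 0.0675). Klf5, an early adipogenic factor, was at -0.64 ± 0.24 and Zfp423, a determinant of preadipocytes, at -0.42 ± 0.17, both with overlapping groups and neither called (limma adjusted p = 0.157 and 0.187). None of 13 genes that restrain adipogenesis was called by limma either (3 at an unadjusted p under 0.05, and 1 lower without both libraries 119), with a median of -0.11. Over all genes tested, 1745 had an unadjusted p under 0.05.

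**Figure D3:**
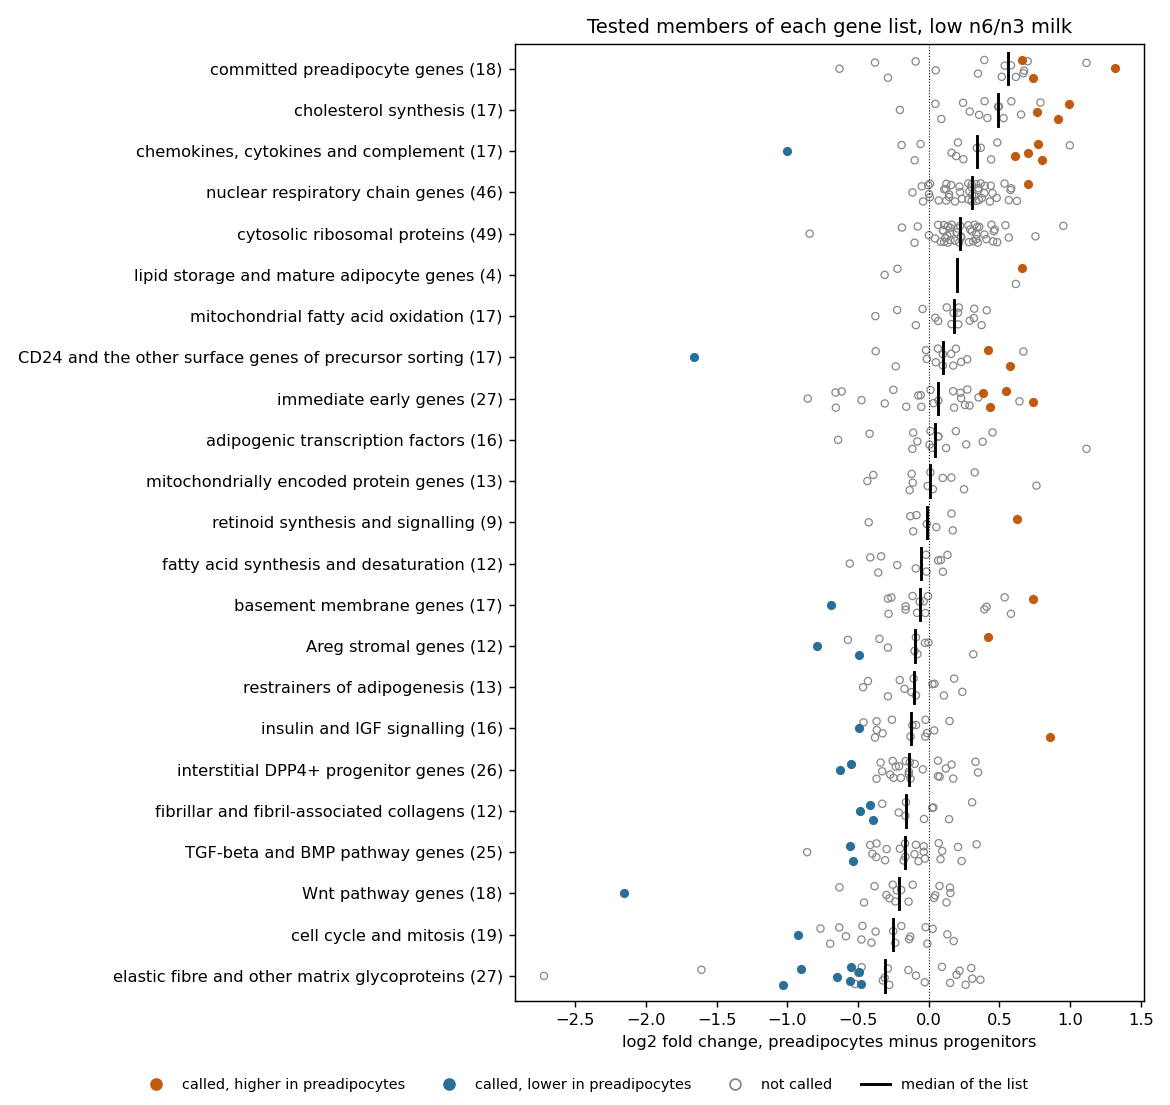
Log2 fold change of preadipocytes over progenitors (x axis) for the tested members of each gene list (y axis, number of tested members in parentheses), with called members filled and the list median as a black bar. The medians run from -0.31 for matrix glycoproteins to 0.56 for committed preadipocyte genes, and the dotted line marks the median of all genes tested.

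Among genes of cholesterol synthesis, Idi1, Msmo1 and Insig1 rose in preadipocytes. The pathway builds cholesterol from acetyl-CoA through mevalonate and squalene, and its genes are switched on by the factor SREBF2 when sterols in the endoplasmic reticulum run low. Over all genes tested, 50.1% were positive and 1.26% were called higher. Of 24 sterol genes listed, 17 were tested, 16 were positive and 3 were called higher, with a median log2 fold change of 0.49. The starts of the 3 called members are shown, and a common regulator was not tested. These are the 250 bases before the RefSeq start of each gene (GRCm38.p6, strand of the gene). CCAAT or its reverse complement ATTGG is in capitals. The positions are chr5:28071162-28071411 (plus strand) for Insig1, chr8:64733579-64733828 (minus strand) for Msmo1 and chr13:8885356-8885605 (plus strand) for Idi1.
Insig1: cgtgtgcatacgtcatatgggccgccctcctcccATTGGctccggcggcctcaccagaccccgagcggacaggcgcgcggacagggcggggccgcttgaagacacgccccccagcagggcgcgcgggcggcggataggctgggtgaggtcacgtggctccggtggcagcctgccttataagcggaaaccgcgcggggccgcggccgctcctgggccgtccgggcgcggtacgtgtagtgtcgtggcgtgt
Msmo1: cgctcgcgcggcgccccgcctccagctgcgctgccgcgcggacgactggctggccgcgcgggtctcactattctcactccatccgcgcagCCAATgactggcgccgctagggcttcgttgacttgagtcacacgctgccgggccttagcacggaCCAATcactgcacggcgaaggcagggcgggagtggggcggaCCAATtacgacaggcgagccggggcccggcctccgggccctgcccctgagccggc
Idi1: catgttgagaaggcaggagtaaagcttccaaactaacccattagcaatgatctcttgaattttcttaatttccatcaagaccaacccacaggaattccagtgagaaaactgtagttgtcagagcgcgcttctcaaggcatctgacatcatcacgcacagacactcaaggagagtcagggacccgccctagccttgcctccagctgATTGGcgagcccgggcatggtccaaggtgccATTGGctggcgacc

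The CCAAT box, the letters bound by the factor NF-Y, began 216 bases before the RefSeq start in Insig1, 160, 96 and 55 bases before it in Msmo1, and 45 and 14 bases before it in Idi1. The GENCODE M21 gene spans begin further upstream, at 28071363 for Insig1, 64733792 for Msmo1 (minus strand) and 8885501 for Idi1. The windows overlap these spans, and all boxes marked in Msmo1 and Idi1 lie within them. The box in Insig1 lies before its span. Of the 24 listed sterol genes, 16 had an entry, and 10 of these were tested for expression. Searched on both strands, the CCAAT box was present in all 16, against 37.5% of 27025 genes with an entry. It was present in 33.8% of 32851 windows of the same length. This background was not limited to the genes tested for expression. A strict form of the sterol regulatory element, TCACNCCAC or its reverse complement GTGGNGTGA, was present in 1 of the 16 (Hmgcs1) and in 1.22% of all genes. The motifs were searched separately, and matches may share letters. A match is a description of the letters only.

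Msmo1, an oxidase that removes methyl groups from sterol intermediates, had 22.6, 23.1, 27.3 and 22.0 scaled counts in preadipocytes, against 9.75, 11.5, 14.95 and 12.7 in progenitors. The lowest preadipocyte library was above the highest progenitor library (log2 fold change 0.92 ± 0.14, limma adjusted p = 0.0169). Idi1, the isomerase that makes the prenyl building block dimethylallyl diphosphate, had 21.4, 16.2, 29.1 and 23.2 scaled counts in preadipocytes, against 10.9, 12.9, 7.73 and 11.4 in progenitors. Libraries 119 set its extremes, the highest preadipocyte and the lowest progenitor value (log2 fold change 0.99 ± 0.20, limma adjusted p = 0.035). Insig1, which holds the SREBP complex in the endoplasmic reticulum and is itself an SREBP target, had 57.8, 48.2, 65.3 and 55.5 scaled counts in preadipocytes, against 25.6, 32.9, 34.5 and 39.6 in progenitors. Its groups were apart as well (log2 fold change 0.76 ± 0.14, limma adjusted p = 0.0297). Hmgcs1, an early synthase of the mevalonate pathway, did not overlap between groups and was not called (0.58 ± 0.15, limma adjusted p = 0.0636). Dhcr7, a late reductase, was the negative member, at -0.20 ± 0.32. Leaving out single libraries gave 0 to 3 called sterol genes: Msmo1 lost its call in 2 of the 8 fits, Insig1 in 5 and Idi1 in 6. The highest limma adjusted p was 0.0591 for Msmo1 (without preadipocyte library 114), 0.0891 for Insig1 and 0.0939 for Idi1 (both without preadipocyte library 108), and removing the length and GC trend ended the call of Idi1 (0.0594).

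**Figure D4:**
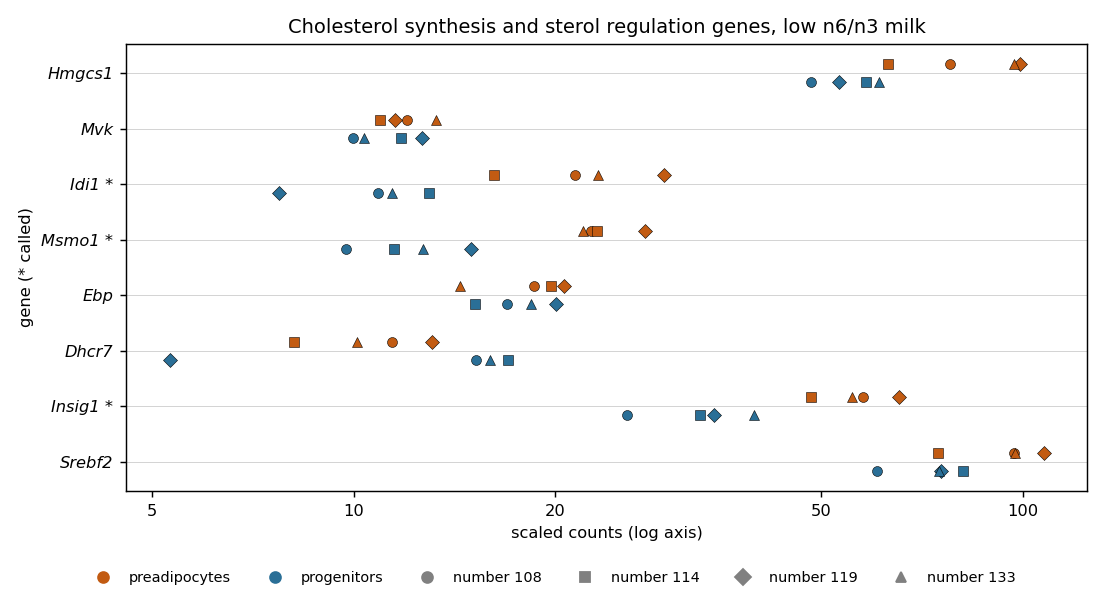
Scaled counts (x axis, log scale) in each library for 8 of the 17 tested genes of cholesterol synthesis and regulation (y axis, pathway order from top), preadipocytes in the upper row and progenitors in the lower row of each gene. The groups are separate for the 3 called genes (Idi1, Msmo1 and Insig1) and Hmgcs1, and overlap for others such as Mvk and Ebp.

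None of 12 tested genes of fatty acid synthesis was called by limma (3 at an unadjusted p under 0.05, and 1 lower without both libraries 119), and their median was -0.06 (0.03 when libraries were scaled to their totals). Scd1, the stearoyl-CoA desaturase, had 99.9, 114, 123 and 101 scaled counts in preadipocytes and 204, 155, 156 and 135 in progenitors, without overlap (-0.56 ± 0.13, limma adjusted p = 0.0518). Fasn, the fatty acid synthase, was at -0.36 ± 0.11 (limma adjusted p = 0.103). Mitochondrial fatty acid oxidation, named in the title of the series, had 17 tested genes, a median of 0.18 and no call by limma (6 at an unadjusted p under 0.05, and 1 higher under scaling to totals). Cpt1a, the carnitine transferase that admits long-chain fatty acids to mitochondria, had 85.3, 93.5, 74.4 and 57.1 scaled counts in preadipocytes and 105, 98.4, 100 and 94.2 in progenitors. The groups did not overlap, in the direction opposite to the list's median, and the difference of -0.38 ± 0.14 was not called (limma adjusted p = 0.154).

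Of 17 tested genes of chemokines, cytokines and complement, 4 rose (Ccl11, Cxcl1, Cxcl12 and C1s1) and 1 fell, with a median of 0.34. Ccl11, the eosinophil attractant eotaxin, had 95.9, 88.3, 82.1 and 90.4 scaled counts in preadipocytes, against 54.6, 58.5, 46.2 and 48.7 in progenitors (0.77 ± 0.10, limma adjusted p = 0.00859). Cxcl1, a neutrophil attractant, had 366, 428, 466 and 389 scaled counts in preadipocytes, against 272, 176, 259 and 248 in progenitors (0.80 ± 0.14, limma adjusted p = 0.0261). Both were higher in every preadipocyte library. C1s1, a protease of the classical pathway with the close copy C1s2, had 430, 522, 565 and 499 scaled counts in preadipocytes, against 330, 292, 335 and 277 in progenitors (0.71 ± 0.10, limma adjusted p = 0.0156). Without preadipocyte library 114, Cxcl1 and C1s1 were not called (limma adjusted p = 0.0774 and 0.0566); Ccl11 was called in all 8 fits without 1 library. Between 2 and 6 members of the list were called in those fits. Rarres2, which encodes the chemoattractant and adipokine chemerin, also rose, at 0.63 ± 0.09 (limma adjusted p = 0.0165; 0.0594 without preadipocyte library 114), as the called gene among 9 tested of retinoid synthesis and signalling.

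Immediate early genes respond within minutes to signals and stress, cell dissociation among them. Of 27 tested, 4 rose (Jun, Ier2, Gadd45b and Hspa1b), none fell, and the median was 0.07. Without both libraries 119, 5 rose and 1 fell. Jun, a subunit of AP-1, had 1119, 1211, 1392 and 1265 scaled counts in preadipocytes, against 908, 878, 924 and 974 in progenitors, without overlap (0.43 ± 0.08, limma adjusted p = 0.0331). Hspa1b, an inducible chaperone whose reads can be shared with its near-identical copy Hspa1a, had 1406, 1559, 2335 and 1569 scaled counts in preadipocytes, against 1008, 984, 1045 and 998 in progenitors. Its progenitor libraries were close to each other and all lower (0.74 ± 0.14, limma adjusted p = 0.0316). Single left-out libraries gave 0 to 6 calls in this list, and Jun was not called without preadipocyte library 114 (limma adjusted p = 0.0955), nor Hspa1b without progenitor library 108 (0.0809). The part of this response in the other results was not tested.

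Cilp, C1qtnf3 and Thbs4 were among the called genes that were lower in preadipocytes. Cilp, a secreted matrix protein first known from cartilage (chr9:65265180-65280605), had 69.2, 56.2, 85.6 and 71.5 scaled counts in preadipocytes, against 212, 199, 258 and 277 in progenitors. The highest preadipocyte library was far below the lowest progenitor library, and the log2 fold change was -1.73 ± 0.15 (limma adjusted p = 0.000931). C1qtnf3, a secreted relative of complement C1q, had 18.3, 21.6, 23.8 and 19.1 scaled counts in preadipocytes, against 46.0, 57.6, 58.3 and 60.0 in progenitors (-1.38 ± 0.12, limma adjusted p = 0.00125). Thbs4, a matricellular thrombospondin, had 10.0, 7.68, 27.9 and 10.6 scaled counts in preadipocytes, against 37.3, 47.7, 78.6 and 72.8 in progenitors. Library 119 was high for Thbs4 in both populations and the groups did not overlap (-2.10 ± 0.37, limma adjusted p = 0.0254). Its call was lost in 5 of the 8 fits without 1 library, with an adjusted p of up to 0.0788 (without preadipocyte library 108), whereas Cilp and C1qtnf3 were called in all 8.

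Of 27 tested matrix glycoproteins, 7 were lower in preadipocytes (Eln, Fbn1, Fbn2, Lox, Fn1, Tnxb and Prelp), none was higher, and the median was -0.31. Under scaling to totals 3 were higher and 6 lower, and without both libraries 119 1 was higher and 8 were lower. Eln, the elastin precursor, had 3115, 3178, 2889 and 3041 scaled counts in preadipocytes, against 5207, 6056, 8198 and 5881 in progenitors. The preadipocyte libraries were nearly level and all far below the progenitors (-1.03 ± 0.13, limma adjusted p = 0.00859). Fbn2, a fibrillin of the microfibrils on which elastin is laid down, had 151, 148, 184 and 200 scaled counts in preadipocytes, against 267, 332, 303 and 382 in progenitors (-0.91 ± 0.13, limma adjusted p = 0.016). Lox, the enzyme that cross-links elastin and collagen, had 395, 372, 373 and 426 scaled counts in preadipocytes, against 523, 588, 695 and 660 in progenitors (-0.65 ± 0.10, limma adjusted p = 0.0176). Neither gene's groups overlapped. Fbn1, the main fibrillin, was lower by a smaller margin (-0.55 ± 0.11, limma adjusted p = 0.0347). With the length and GC trend removed, Eln and Fbn2 were the called members, and Fbn1 (limma adjusted p = 0.341) and Lox (0.0594) were not called. Single left-out libraries gave 1 to 8 calls. Eln was called in all 8 of those fits, and without preadipocyte library 114 Fbn2 and Fbn1 were not (limma adjusted p = 0.0551 and 0.102), nor was Lox without progenitor library 133 (0.0608).

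Among 12 fibrillar and fibril-associated collagens, 3 were lower (Col1a1, Col1a2 and Col5a1), none was higher, and the median was -0.16. Col1a1, a chain of type I collagen, had 65013, 74063, 77427 and 87062 scaled counts in preadipocytes, against 103102, 98820, 104437 and 118345 in progenitors. The groups did not overlap (-0.49 ± 0.10, limma adjusted p = 0.0383). Collagen genes took 25.2%, 26.1%, 25.9% and 28.4% of scaled counts in preadipocytes, against 28.2%, 27.5%, 28.3% and 30.4% in progenitors, ranges that overlap. The calls did not hold in every setting: without both libraries 119 none of the 3 was called (limma adjusted p = 0.0584, 0.0578 and 0.0539 for Col1a1, Col1a2 and Col5a1), and without preadipocyte library 114 Col1a1 reached 0.106. Basement membrane genes moved both ways, with Hspg2 (perlecan) lower at -0.69 ± 0.09 (limma adjusted p = 0.00859; 0.0839 with the length and GC trend removed) and Col4a1 higher, among 17 tested.

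Lgr5, a receptor for R-spondins that boosts Wnt signalling, had 1.44, 3.05, 4.23 and 3.20 scaled counts in preadipocytes, against 14.6, 15.7, 33.2 and 8.64 in progenitors. Levels were low and the progenitors spread widely, without overlap (-2.16 ± 0.38, limma adjusted p = 0.0254; 0.0708 without preadipocyte library 108). The mean of Lgr5 in preadipocytes, 2.98, was below the filter of 10, so Lgr5 was tested only through its level in progenitors. It was the called gene among 18 tested of the Wnt pathway, whose median was -0.21 (3 were lower without both libraries 119). Of 25 tested genes of TGF-beta and BMP signalling, 2 were lower, the receptor Bmpr2 (-0.56 ± 0.12) and the ligand Bmp3 (-0.54 ± 0.11), with limma adjusted p = 0.0396 and 0.0401. Each lost its call when single libraries were left out, with up to 0.115 for Bmpr2 without preadipocyte library 108 and 0.101 for Bmp3 without progenitor library 108. In that list 3 were lower without both libraries 119, and 1 was higher and 1 lower under scaling to totals. Cgnl1, a protein of cell junctions, averaged 26.5 ± 3.81 scaled counts in preadipocytes and 64.8 ± 17.7 in progenitors (-1.23 ± 0.20, limma adjusted p = 0.0184; 0.0612 without preadipocyte library 133). Fat1, a giant cadherin, averaged 127 ± 14.2 and 246 ± 47.0 in preadipocytes and progenitors (-0.94 ± 0.14, limma adjusted p = 0.0165). Fat1 was not called with the length and GC trend removed (0.0634) or without preadipocyte library 114 (0.0551).

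Of 19 tested genes of the cell cycle, 16 were negative, with a median of -0.25, and 1 was called (3 without both libraries 119, all lower). For comparison, 50.1% of all genes tested were positive and 2.9% were called. Mki67, a nuclear protein of dividing cells, had 37.7, 24.9, 34.7 and 42.5 scaled counts in preadipocytes, against 73.7, 81.7, 44.6 and 71.4 in progenitors. The groups were close at one point, between preadipocyte library 133 and progenitor library 119 (-0.93 ± 0.21, limma adjusted p = 0.0463). The call was lost in 7 of the 8 fits without 1 library (up to 0.118, without progenitor library 108) and under scaling to the total (0.0579). Top2a, the topoisomerase of chromosome separation, had 29.9, 21.3, 20.9 and 30.2 scaled counts in preadipocytes and 39.6, 49.6, 34.1 and 44.1 in progenitors, and was not called (-0.70 ± 0.16, limma adjusted p = 0.0539).

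Of 17 tested surface genes used to sort or define adipocyte precursors, Vcam1 and F3 were higher in preadipocytes and Cd24a lower, with a median of 0.10. Vcam1, an adhesion molecule, had 76.6, 84.0, 90.0 and 97.1 scaled counts in preadipocytes, against 55.1, 55.6, 61.8 and 58.5 in progenitors, without overlap (0.58 ± 0.09, limma adjusted p = 0.019). F3, tissue factor, also a marker of a stromal population that holds back adipogenesis, averaged 75.2 ± 3.27 and 56.0 ± 4.49 scaled counts in preadipocytes and progenitors (0.42 ± 0.09, limma adjusted p = 0.0387). Without preadipocyte library 133 neither was called (limma adjusted p = 0.0626 and 0.102), and F3 was not called without both libraries 119 (0.0501). Pdgfra, the receptor that marks mesenchymal precursors, had 308, 450, 614 and 455 scaled counts in preadipocytes and 456, 358, 452 and 397 in progenitors (0.10 ± 0.18, limma adjusted p = 0.79). Cd34 had 1615, 1679, 1575 and 1707 scaled counts in preadipocytes and 1670, 1629, 1673 and 1689 in progenitors (-0.02 ± 0.07, limma adjusted p = 0.898). For both genes the groups overlapped, and both precursor markers were present in every library.

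Genes of the interstitial DPP4+ progenitors, a stem-like population of the tissue, were mostly negative: of 26 tested, 18 were negative, 2 fell (Fbn1 and Creb5), none rose, and the median was -0.14. Under scaling to totals, and also without both libraries 119, 1 member rose. Among all genes tested, 50.1% were positive and 1.64% were called lower. Dpp4 itself had 394, 499, 433 and 445 scaled counts in preadipocytes and 528, 501, 480 and 569 in progenitors, with overlap (-0.23 ± 0.09, limma adjusted p = 0.18). Pi16, another marker of these cells, was at -0.16 ± 0.13 (limma adjusted p = 0.481). Dpt, 1 of the 8 positive members, was higher without overlap and not called (0.33 ± 0.09, limma adjusted p = 0.0652). Neither Fbn1 nor Creb5 was called with the length and GC trend removed. Dlk1, a preadipocyte gene that falls as adipocytes mature, varied more within than between populations, with 308, 382, 827 and 446 scaled counts in preadipocytes and 380, 336, 1229 and 617 in progenitors. Library 119 was highest in both populations, and the difference of -0.29 ± 0.41 was not called (limma adjusted p = 0.727). Of 12 tested genes of the stromal population marked by F3, Clec11a (-0.79 ± 0.17, limma adjusted p = 0.0401) and Igfbp3 (-0.49 ± 0.11, limma adjusted p = 0.0433) were lower and F3 was higher. Igfbp3 and Igfbp7 were the called members, in opposite directions, among 16 tested genes of insulin and IGF signalling. Clec11a was not called without preadipocyte library 114 (0.116), nor Igfbp3 without preadipocyte library 108 (0.118) or without both libraries 119 (0.0525). Under scaling to totals, neither Clec11a nor Igfbp3 was called (limma adjusted p = 0.0533 and 0.0569).

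Among all genes tested, 50.1% were positive and 2.9% were called. Of 46 nuclear genes of the respiratory chain, 42 were positive, the median was 0.30 and 1 was called. That gene, Ndufs4, an accessory subunit of complex I, had 30.6, 22.3, 21.3 and 23.7 scaled counts in preadipocytes, against 13.8, 14.4, 14.9 and 14.9 in progenitors (0.70 ± 0.13, limma adjusted p = 0.0274; 0.0745 without progenitor library 108). Of 49 cytosolic ribosomal proteins, which share reads with many pseudogenes, 45 were positive, the median was 0.22 and none was called by limma (22 at an unadjusted p under 0.05). Rps27, a small-subunit protein, had 307, 298, 199 and 202 scaled counts in preadipocytes and 95.0, 101, 187 and 145 in progenitors. Library 119 lay between the groups, as the lowest preadipocyte and the highest progenitor value. Without both libraries 119, 9 respiratory chain genes and 13 ribosomal protein genes were called, all higher, and under scaling to totals 3 and 2. With the length and GC trend removed the medians were 0.17 for the respiratory chain and 0.13 for ribosomal proteins. The 13 mitochondrially encoded protein genes had a median of 0.01 (-0.12 with that trend removed) and no call by limma (2 at an unadjusted p under 0.05). Mitochondrially encoded genes took 2.50% to 3.03% of scaled counts in preadipocytes and 2.16% to 2.72% in progenitors.

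Markers of other cell types were summed in each library. The sum of 7 erythroid markers found in both tables was 32.7 to 63.4 scaled counts in preadipocytes and 81.4 to 317 in progenitors. Hba-a2, an alpha-globin gene that shares reads with Hba-a1, had 24.0, 18.3, 16.1 and 12.0 scaled counts in preadipocytes, against 34.2, 141, 59.8 and 80.3 in progenitors, and was lower (-1.96 ± 0.37, limma adjusted p = 0.03; 0.0501 without both libraries 119 and 0.0883 without preadipocyte library 114). Skeletal muscle and satellite cell markers summed to 9.45 to 21.6 scaled counts in preadipocytes and 32.7 to 73.5 in progenitors. Their called member, Acta1, the skeletal muscle actin, had 3.05, 7.33, 4.77 and 1.92 scaled counts in preadipocytes, against 14.2, 19.6, 28.4 and 22.1 in progenitors (-2.13 ± 0.32, limma adjusted p = 0.0165; 0.0595 without progenitor library 133). The defining satellite cell markers Pax7 and Myod1 were at no more than 0.105 and 0.428 scaled counts in any library. Pericyte and smooth muscle markers summed to 234 to 314 scaled counts in preadipocytes and 320 to 365 in progenitors, and Abcc9, a potassium channel subunit, was lower (-0.77 ± 0.10, limma adjusted p = 0.00859). Of 6 tested in that list, 5 were negative, and Notch3 went the other way (0.60, not called). Macrophage markers summed to 16.4 to 33.4 scaled counts in preadipocytes and 26.6 to 44.7 in progenitors, with none high enough to test. Endothelial markers summed to 282 to 401 and 344 to 393 scaled counts in preadipocytes and progenitors, with no call by limma among 6 tested (4 at an unadjusted p under 0.05). The summed markers of neutrophils, T and NK cells, mast cells and brown adipocytes were each at no more than 13.3 scaled counts in any library. The part of erythroid, muscle and pericyte RNA in the other results was not tested.

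The contrast on low-ratio milk was then set against the same contrast on high-ratio milk. The 2 contrasts share no library, but they share both tables, so a shift of one whole table would enter both and drop out of their difference. In a fit of all 15 libraries over 7618 genes, 2899 genes (38.1%) were called between preadipocytes and progenitors on high-ratio milk and 523 (6.87%) on low-ratio milk. Of these, 435 were called on both, which is 15.01% of the high-ratio calls and 83.2% of the low-ratio calls, and 432 of the 435 had the same sign. The difference between the contrasts, tested as an interaction, was called for 512 genes (6.72%), 167 of them higher on low-ratio milk and 345 lower. Leaving out single libraries gave 194 to 895 such genes, the fewest without preadipocyte library 1015 and the most without preadipocyte library 1019 of the high-ratio milk. Estimated depth of the 3 preadipocyte libraries on high-ratio milk was 13.8, 68.8 and 22.8 M reads, and its part in the difference was not tested.

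Of the 217 genes called on low-ratio milk that were in this fit, 214 had the same sign and 189 were called on high-ratio milk, and 23 differed between milks. Cd24a had log2 fold changes of -1.66 on low-ratio and -1.64 on high-ratio milk, a difference of -0.02 ± 0.19 (limma adjusted p = 0.957), and Cilp had -1.73 and -2.20 (difference 0.46 ± 0.18, limma adjusted p = 0.142). Mgst1 was an exception. In the scale of this fit it had 113, 118, 89.1 and 102 scaled counts in low-ratio preadipocytes and 57.6, 56.8, 58.6 and 54.8 in low-ratio progenitors, against 359, 281 and 180 in high-ratio preadipocytes and 59.8, 69.4, 67.0 and 61.6 in high-ratio progenitors. The gap between populations was thus smaller on low-ratio milk (difference -1.14 ± 0.23 on the log2 scale, limma adjusted p = 0.0123), and the difference was called in all 15 fits that left out 1 library.

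Mitochondrial and ribosomal genes were among those whose contrast differed between milks. Of 13 mitochondrially encoded protein genes, 11 had a lower contrast on low-ratio milk, where their median log2 fold change was 0.01, against 1.52 on high-ratio milk. mt-Atp8, a subunit of the ATP synthase, had 2249, 2851, 1997 and 2464 scaled counts in low-ratio preadipocytes and 2423, 2608, 2463 and 2077 in low-ratio progenitors, against 8398, 6737 and 4964 in high-ratio preadipocytes and 2001, 1748, 1705 and 1333 in high-ratio progenitors. The populations overlapped on low-ratio milk and were apart on high-ratio milk (difference -1.97 ± 0.23, limma adjusted p = 0.00119). With the trend on length and GC content removed, 3 of the 13 genes were called and mt-Atp8 was not (limma adjusted p = 0.372). The contrast was also lower on low-ratio milk for 22 of 49 ribosomal protein genes (medians 0.22 and 0.98) and for 12 of 46 nuclear respiratory chain genes (medians 0.30 and 0.35). Without preadipocyte library 1015 of the high-ratio milk, the one with the lowest depth, these counts were 9 mitochondrially encoded, 10 ribosomal and 6 respiratory chain genes. In the other direction, Col1a1 had log2 fold changes of -0.49 on low-ratio and -1.14 on high-ratio milk (difference 0.65 ± 0.13, limma adjusted p = 0.0136). By limma, no difference between milks was called among the 17 sterol genes (0 at an unadjusted p under 0.05) or the 18 fatty acid oxidation genes in this fit (3 at an unadjusted p under 0.05). Over all 7618 genes in this fit, 1765 had an unadjusted limma p under 0.05 for the difference between milks.

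**Figure D5:**
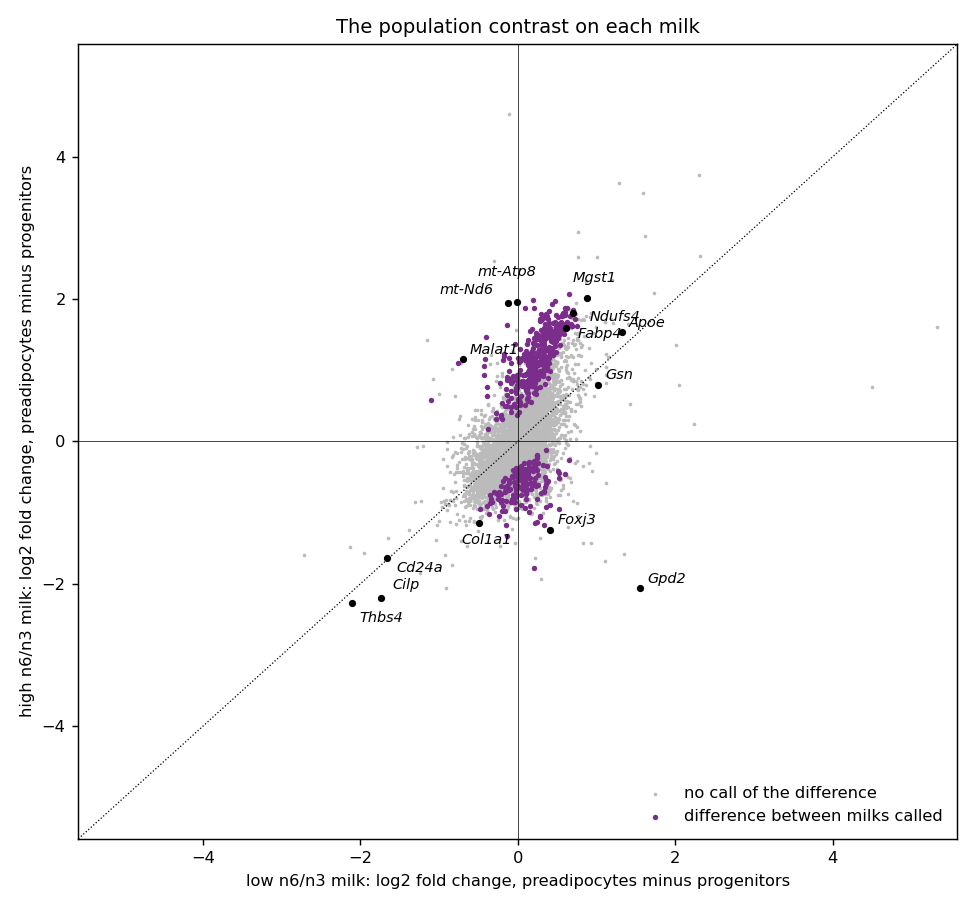
Log2 fold change of preadipocytes over progenitors on low-ratio milk (x axis) and on high-ratio milk (y axis) for 7618 genes, with the 512 genes whose contrast differed between milks in purple and the line of equal contrasts dotted. Cd24a, Cilp and Thbs4 lie near the line, and mt-Atp8, mt-Nd6 and Mgst1 lie above it.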

How the data were processed

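RNA of sorted adipocyte precursor cells was sequenced in bulk, with NuGEN Universal Plus mRNA libraries per the labels' protocols. Reads were processed with Salmon 0.14.2 and DESeq2 1.28.1, per the submitters' processing notes, which list 2 builds, GRCm38 and mm10. Neither an annotation release nor a strand option is given in the sources used here. The authors deposited 1 table per population, in which expression is on a log2 scale after a variance stabilizing transformation (lowest value 7.12 in preadipocytes and 7.70 in progenitors). The deposited p-values and fold changes compare the milks and served to check the inversion.

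The transformation was inverted in closed form. The group differences recomputed from it differed from the deposited fold changes by a median of 0.00304 log2 units over 11076 genes in preadipocytes and 0.000751 over 11164 genes in progenitors. The 21792 genes found in both tables by Ensembl ID were kept. Libraries were rescaled with median-of-ratios factors and then to a mean total of 1000000. Names, coordinates, length and GC content came from GENCODE M21 on GRCm38, and promoter sequences from RefSeq on GRCm38.p6. Low values fell on whole multiples of 1 read for only part of the genes (39.8% to 81.7% of values up to 20 reads, tolerance 0.02, in genes with 1 transcript), so no count test was run and depth was estimated from that step.

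Genes with a mean of at least 10 scaled counts were tested with limma 3.58.1 (trend and robust, R 4.3.3) on log2(scaled count + 1), preadipocytes minus progenitors, two-sided, with Benjamini-Hochberg adjustment at 0.05. The contrast between milks was an interaction over 15 libraries with a mean per group, in which a shift between tables drops out. The members, the gene lists and the rule for named genes were chosen with earlier results of these data known. The rule named the 10 called genes with the largest fold change in each direction (groups without overlap, a mean of at least 50 scaled counts in the higher group, no provisional names), up to 4 members of each gene list by p, up to 3 of each marker list by level, the sort and commitment genes, and the 5 called genes with the largest interaction in each direction. List members called besides these, and sterol genes shown beside them, were named after their values were seen. Alternatives were total scaling, ranks, quantile normalization, the deposited scale, pseudocounts of 0.5 and 5, filters at 50 and none, all 15 libraries, a block on the library number, removal of a smooth trend on length and GC content (mgcv 1.9.3), and leaving out each library. A filter at 1 and leaving out both libraries 119 were added after seeing the data. Results for some genes are not reported here.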

Additional observations from a re-analysis of the deposited data

Results flagged for a closer look

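In 252 groups of 4 libraries checked with Dixon's test, 10 held a library far from the other 3. Chance flags about 1 in 20 groups. Library 119 was the one apart for Apoe in progenitors (157 scaled counts), Thbs4 in preadipocytes (27.9), and Des, a muscle filament gene, in both populations (10.6 in preadipocytes and 24.4 in progenitors). Library 108 was low for Zfp423 (31.6) and Foxj3 (24.9) in preadipocytes and high for Mbp, a myelin gene (29.3), in progenitors. Library 114 was low for Tek, an endothelial receptor (148), and Abcc9 (116) in progenitors, and library 133 was low for Cgnl1 (20.9) in preadipocytes.

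Of 122 named genes in the fit of both milks, 21 had a contrast that differed between milks by the limma interaction. The values below are the low-ratio contrast minus the high-ratio contrast on the log2 scale. Among genes called on low-ratio milk the differences were -1.14 for Mgst1, -1.10 for Ndufs4, 0.65 for Col1a1 and 0.51 for Col1a2. For Igf1, not called in the fit of 8 libraries, the difference was -0.55 (limma adjusted p = 0.0318). It was called in 6 of the 15 fits that left out 1 library. The rule for named genes added Gpd2 (3.62), Foxj3 (1.65), Phlpp1 (1.499), Fam210a (1.47) and Crim1 (1.38) on the higher side. On the lower side it added mt-Nd6 (-2.06), mt-Atp8 (-1.97), the brain cytoplasmic RNA Bc1 (-1.87), Rpl17 (-1.86) and the nuclear RNA Malat1 (-1.86). Without preadipocyte library 1015 of the high-ratio milk, limma did not call Col1a2 (adjusted p = 0.0884), Ndufs4 (0.105), Gpd2 (0.0627), Phlpp1 (0.0592), Fam210a (0.0618), Bc1 (0.0548) or Rpl17 (0.0899). Malat1 was not called without preadipocyte library 1017 of that milk (0.0706). With the trend on length and GC content removed, Ndufs4 (0.077), mt-Atp8 (0.372), Bc1 (0.305) and Malat1 (0.0893) were not called.

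Gpd2, the mitochondrial glycerol phosphate dehydrogenase, differed within a group as well as between groups. On the scale of that fit it had 25.05, 29.7, 36.0 and 14.2 scaled counts in low-ratio preadipocytes and 1.91, 2.98, 34.2 and 13.8 in low-ratio progenitors, against 2.84, 2.81 and 3.87 in high-ratio preadipocytes and 12.6, 15.7, 23.1 and 15.4 in high-ratio progenitors. Low-ratio progenitor libraries 108 and 114 stood below 119 and 133.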

How the results depend on the processing

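The count of called genes (221, with 96 higher and 125 lower) moved with several choices. It was 128 (62 and 66) with the GC and length trend removed, 520 (228 and 292) with all 15 libraries in the fit, 84 (29 and 55) with no filter, and 469 (238 and 231) without both libraries numbered 119, a setting chosen after seeing the data. Scaling to the total gave 191 higher and 79 lower, and a filter at 1, also chosen after seeing the data, gave 58 higher. Leaving out 1 library gave 22 to 357 calls, 7 to 171 of them higher and 13 to 201 lower. The settings not named in this section gave counts within 1.5 times of the reported ones. Shared with the 221 were 117 genes with the trend removed, 183 without both libraries 119, 175 under total scaling and 64 with no filter. Cilp, Ccl11, Gsn, Eln, Mgst1 and Lpl were called in all 22 settings run, and Cd24a and C1qtnf3 in all 21 in which they could be fitted.

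The labels do not say that libraries of the same number came from the same animals, and the numbers were not treated as pairs. Deviations from the group means correlated by -0.098, -0.093, 0.066 and 0.083 between libraries of the same number, and not every library correlated best with its own number, although sex-linked genes went with the number. With the replicate block, 41 genes were called (15 higher and 26 lower), and with the block and the trend removed 44 (23 and 21). Of the 221 genes, 34 were also called with the block, and 29 of the 48 called named genes were not. The limits given for single genes in the Results do not include this block. The interaction had 512 called genes, 315 with the trend removed, 181 with the replicate block, and 194 to 895 when 1 of 15 libraries was left out. The cause of these moves was not tested.

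Of the named genes none that was called changed sign. Among those not called, Pdgfra (0.10) was at -0.00995 without both libraries 119 and ranged from -0.056 to 0.27 over left-out libraries. Cd34 (-0.02) was at 0.052 with the trend removed, with or without the replicate block, 0.075 on the deposited scale, 0.0061 after quantile normalization, 0.0040 as rank scores, 0.063 under total scaling and 0.0068 without both libraries 119. It ranged from -0.037 to 0.0016 over left-out libraries, and Dlk1 from -0.57 to 0.093.

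The normalization per table, the missing number of animals per library and the groups of 4 limit these results. Transcripts of less than 10 scaled counts were not tested.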

Other observations

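The genes in this section were chosen after their values were seen. Progenitor libraries 108 and 114 were far below 119 and 133 for 2 pseudogenes. Gm29216, an unprocessed pseudogene, had 1288, 1549, 960 and 1124 scaled counts in preadipocytes and was listed at 0 in progenitor libraries 108 and 114, with 1054 and 786 in libraries 119 and 133. Rpsa-ps10, a processed pseudogene, had 49.5, 58.9, 56.4 and 49.7 scaled counts in preadipocytes and 1.02, 5.14, 49.1 and 46.5 in progenitors. Gm12918, a processed pseudogene, was called, with 25.3, 15.4, 22.7 and 26.4 scaled counts in preadipocytes and 0 listed in all 4 progenitor libraries (limma adjusted p = 7.64e-05). It passed the filter of 10 scaled counts only through preadipocytes. On high-ratio milk its groups overlapped, with 49.5, 69.6 and 0 scaled counts in preadipocytes and 0, 9.65, 18.1 and 31.4 in progenitors. Reads of pseudogenes can be shared with their parent genes, and an exact 0 can be a failed estimate.

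Progenitor library 119 was the highest for Ltbp2 and Tnc. Ltbp2, a protein of elastic microfibrils, had 4.81, 2.66, 1.19 and 3.18 scaled counts in preadipocytes and 8.08, 20.1, 129 and 13.7 in progenitors. Tnc, the matrix protein tenascin C, had 3.80, 3.56, 4.96 and 4.12 scaled counts in preadipocytes and 7.87, 11.6, 42.6 and 10.8 in progenitors. The groups did not overlap for either gene, and neither was called (limma adjusted p = 0.0674 and 0.0712). Both genes passed the filter for testing only through progenitors.

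Xist and Ddx3y went with the library number in both populations. Xist, transcribed from the inactive X chromosome, had 87.5, 50.4, 21.1 and 11.9 scaled counts in preadipocytes and 60.8, 77.6, 29.0 and 14.7 in progenitors. Ddx3y, on the Y chromosome, had 23.2, 32.0, 43.7 and 48.7 scaled counts in preadipocytes and 22.7, 20.8, 39.2 and 45.8 in progenitors. Both genes were counted in every library, and libraries 119 and 133 had less Xist and more Ddx3y than 108 and 114 in both populations.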
